A study of Mus musculus with 15 samples.

Results

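The 9 genes described here carry out the loading, synthesis and re-uptake of the fast transmitters glutamate, GABA and glycine. They were chosen by gene symbol, whatever their values, from the 26628 genes of a table of brain RNA-seq, and all 9 were found and passed the filter on low values. They are the vesicular glutamate transporters Slc17a7, Slc17a6 and Slc17a8, the vesicular transporter of GABA and glycine Slc32a1, the GABA-synthesizing enzymes Gad1 and Gad2, the plasma membrane GABA transporters Slc6a11 and Slc6a13, and the glycine transporter Slc6a5. The samples were whole dissections of 2 brain regions, the cerebellum (Ce) and the striatum (St), of male Hsd:ICR mice, which the labels give as 6 weeks old, from a line bred for high voluntary wheel running (Hi) and an unselected control line (Co). There were 4 CeCo, 4 CeHi, 4 StCo and 3 StHi samples, numbered from 0 in each group. A further StHi sample that the study dropped was not analysed here. All mice of both lines had a wheel in the cage and were sampled on day 7. With 1 selected and 1 control line, the effect of selection and drift between the lines cannot be told apart, and which column belongs to which line was taken from the labels alone. Whether the signs of the line contrasts in the text of the study follow these labels was not settled, so every line direction given here would turn if the names of the lines were exchanged.

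A neuron is recognized as glutamatergic or GABAergic largely by these genes. A vesicular glutamate transporter fills synaptic vesicles with glutamate, Gad1 and Gad2 make GABA from glutamate, and Slc32a1 fills vesicles with GABA or glycine. Granule cells of the Ce use Slc17a7 and neurons of the deep cerebellar nuclei use Slc17a6, whereas Purkinje cells and the inhibitory interneurons use the GABA genes. Nearly all neurons of the St make GABA, and the cell bodies of the glutamatergic axons that end there lie in the cortex, which uses mainly Slc17a7, and in the thalamus, which uses mainly Slc17a6. Slc17a8 is known from the cholinergic interneurons of the St and from raphe neurons.

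The values are normalized counts, that is, fragment counts of a gene divided by 1 factor per library, and not by gene length. Totals were 38499264 to 43669012 normalized counts, which correspond to 32909383 to 47485535 fragments per library, and 1 fragment equalled 0.841 to 1.297 normalized counts. The detection floor of a group was set at no more than 3 fragments of a gene in each of its samples, which covers counting error only. The labelled tissues matched their marker genes: the summed markers of cerebellar granule cells were 216771 to 266218 in the Ce against 4679 to 6494 in the St, and those of medium spiny neurons were 168672 to 233951 in the St against 8319 to 11668 in the Ce. Fewer cells of a type and less RNA per cell cannot be told apart in dissected tissue. Differences between groups are given as log2 of the value plus 1, which understates the change of low genes, with the standard error (SE) and the FDR-adjusted P-value over 15213 genes from limma. The sign is that of Co minus Hi for the lines (CeCo-CeHi and StCo-StHi) and of Ce minus St for the regions.

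Slc17a8 and Slc6a5 passed the filter on low values through 1 region alone, so a difference between regions was built into their choice for the test, and their region differences are a description. Of the other 7 genes, 5 differed between the Ce and the St in the control line, beside 74.7% of all genes tested, and the same 5 in the selected line, beside 70.5%. Of these, 1 was higher in the Ce in each line (Slc6a13), beside 37.8% of all genes in the control line and 35.4% in the selected line, and 4 were higher in the St (Slc32a1, Slc6a11, Gad1 and Gad2), beside 36.9% and 35.1%. The total of 5 of 7 genes was thus near the share of all genes. The split by direction, 1 against 4, rests on few genes and was not tested. Between lines, 1 of 9 genes differed in the Ce (Slc17a8, higher in CeCo), beside 5.94% of all genes in either direction and 2.99% with higher values in CeCo, and 0 of 9 in the St, beside 2.66%, although 4 of 9 had an unadjusted P-value under 0.05 there. The count of 0 in the St was 1 by edgeR and 1 by DESeq2 (Slc17a8 in both). Slc6a5 was at the floor in both St groups and could not show a line difference there. It is still counted among the 9 genes, also in the median for the St and in the interaction. The median of the 9 log2 line differences was 0.06 for the Ce and -0.07 for the St, next to 0.0021 and 0.0046 over all genes. Groups without overlap of samples were found for 1 of 9 genes between lines in the Ce and 2 of 9 in the St, beside 13.3% and 13.1% of all genes, and, without Slc17a8 and Slc6a5, for 4 of 7 and 5 of 7 genes between regions, beside 69.9% and 68.3%. The line by region interaction, the line difference in the Ce minus that in the St, passed for 1 of 9 genes (Slc17a8), beside 0.532% of all genes.

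**Figure D1:**
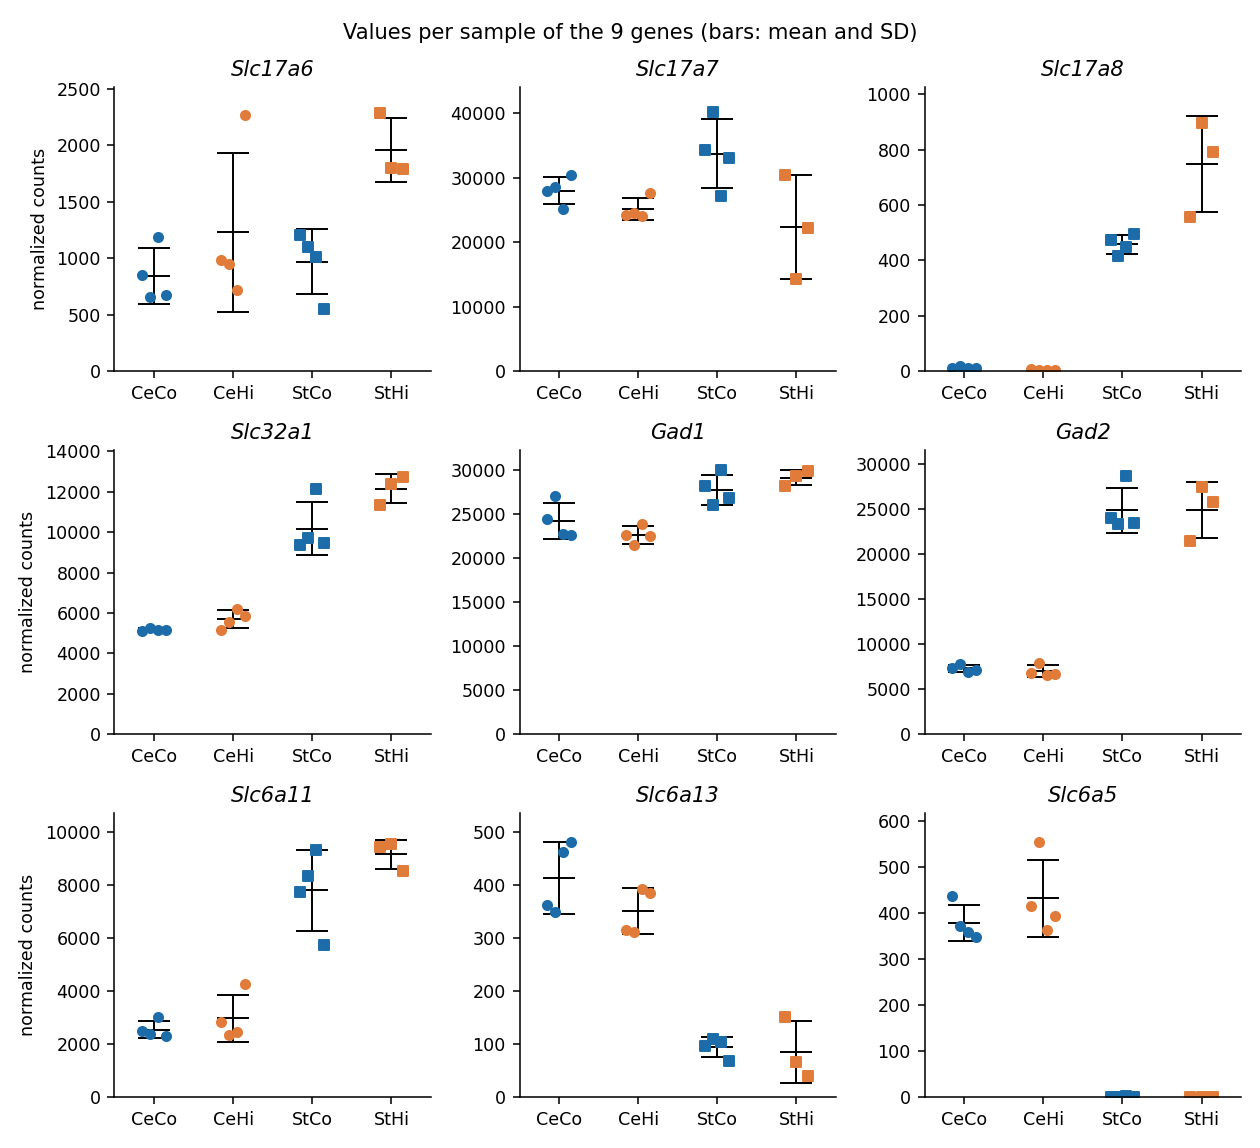
Normalized counts (vertical axis, from 0) of the 9 genes in each sample of CeCo, CeHi, StCo and StHi, as points, with the mean and SD of each group as bars. Gad2, Slc32a1, Slc6a11 and Slc17a8 are higher in every St sample than in any Ce sample, Slc6a13 and Slc6a5 are lower, and the lines overlap in most panels.

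For 4 genes the sequence before the first RefSeq start site is shown, since these 4 set the extremes of the patterns: Slc17a8 differed between lines, its relatives Slc17a7 and Slc17a6 did not by the same test, and Slc6a5 was at the floor in the St. The sequences are read 5′ to 3′ on the strand of the gene (RefSeq, GRCm38.p6), stop where an annotated exon begins, and have the motif CANNTG, the E-box that basic helix-loop-helix factors can bind, in capitals. The motif reads the same on both strands. The stretch for Slc17a8 is chr10:89621254-89621499 on the minus strand, and those on the plus strand of chromosome 7 are chr7:45163671-45163920 for Slc17a7, chr7:51621580-51621829 for Slc17a6 and chr7:49910049-49910145 for Slc6a5.
Slc17a8: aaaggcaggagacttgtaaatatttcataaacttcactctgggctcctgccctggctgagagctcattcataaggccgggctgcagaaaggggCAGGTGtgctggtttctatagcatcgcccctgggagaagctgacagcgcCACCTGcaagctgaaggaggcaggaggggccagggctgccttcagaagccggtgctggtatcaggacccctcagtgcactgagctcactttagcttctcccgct
Slc17a7: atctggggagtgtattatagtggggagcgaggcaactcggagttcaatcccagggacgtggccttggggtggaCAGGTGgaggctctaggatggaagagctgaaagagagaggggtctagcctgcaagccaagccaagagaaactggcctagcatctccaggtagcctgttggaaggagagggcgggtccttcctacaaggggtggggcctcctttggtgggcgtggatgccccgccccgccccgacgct
Slc17a6: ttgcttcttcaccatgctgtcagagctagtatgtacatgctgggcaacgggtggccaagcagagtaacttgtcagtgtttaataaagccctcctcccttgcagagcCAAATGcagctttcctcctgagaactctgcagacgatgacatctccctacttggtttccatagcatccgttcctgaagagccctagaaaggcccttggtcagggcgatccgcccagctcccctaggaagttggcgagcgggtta
Slc6a5: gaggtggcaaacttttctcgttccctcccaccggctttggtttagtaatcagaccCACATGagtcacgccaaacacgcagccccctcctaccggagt
The motif occurs 2 times before Slc17a8 and 1 time before each of the other 3 genes. The stretches of Slc17a8 and Slc6a5 are shorter than 250 bases, at 246 and 97. Their full windows of 250 bases also hold the motif, 2 times and 1 time. It was present in 66.2% of 32851 mouse promoters of 250 bases, so its presence in such a window sets none of the 4 apart.

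Slc17a7 (GRCm38, chromosome 7, 45163949 to 45176142), the vesicular glutamate transporter VGLUT1, was the most abundant of the 3 vesicular glutamate transporters in both regions. Its normalized counts in CeCo replicates 0 to 3 were 27900, 28599.5, 25215 and 30380.5, and those in CeHi were 24288, 24610, 24073 and 27684. The StCo samples had 34379, 40268.5, 27245 and 33137, and the StHi samples had 30405.5, 14357 and 22272. The lowest value of all was that of StHi replicate 1, and the lines overlapped in both regions. The mean was 28024 ± 2144 (SD, n = 4) in CeCo, 25163 ± 1695 (SD, n = 4) in CeHi, 33757 ± 5341 (SD, n = 4) in StCo and 22345 ± 8024 (SD, n = 3) in StHi. In the St, Slc17a7 was 0.65 higher in Co than in Hi on the log2 scale (SE 0.19), which missed the threshold by limma (FDR-adjusted P-value 0.090). The difference was 0.91 without StHi replicate 0, where it passed (limma, FDR-adjusted P-value 0.0048), and 0.37 without StHi replicate 1 (0.26). In the Ce the line difference was 0.16 (SE 0.17, limma, FDR-adjusted P-value 0.67).

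Slc17a7 is a transcript of cortical projection neurons, and its level in the St moved with the sum of a list of markers used for such neurons. The summed normalized counts of 7 cortex markers were 16081, 15979, 10992 and 13582 in the StCo samples and 13963, 7253 and 10229.5 in the StHi samples. The ranges of the lines overlapped, no marker of the list was at the floor in the St, and 0 of 7 passed in the StCo-StHi contrast by limma (3 at an unadjusted P-value under 0.05) or edgeR and 1 by DESeq2, with a median log2 difference of 0.56. StHi replicate 1 was lowest in the list and in Slc17a7. Over the 7 St samples, Pearson's r between Slc17a7 and the cortex sum was 0.961 (exact permutation P-value 0.0016, 0.0086 adjusted over 6 relations), and Spearman's rho was 0.929 (exact permutation P-value 0.0067, adjusted 0.040). Pearson's r was 0.852 without the 2 samples farthest from the median of the sum and 0.950 after the mean of each line was removed. The list was not particular to the cortex, as its sum was 8878 to 10996 in CeCo and 9772 to 11929 in CeHi. Of its 7 genes, 5 were higher in the St past the threshold in each line, beside 36.9% and 35.1% of all genes. Cux2 did not pass in either line, and Nrn1 was higher in the Ce (log2 0.94 and 1.36, limma, FDR-adjusted P-values 0.0011 and 0.00011). The part of the cortex markers in the line difference of Slc17a7 was not tested.

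Between regions, Slc17a7 did not pass in either line in the fit of all samples. In the selected line the sign rested on a single sample, while in the control line the difference was -0.36 to -0.18 without 1 sample. The log2 difference between the Ce and the St was -0.26 (SE 0.17, limma, FDR-adjusted P-value 0.19) in the control line and 0.23 (SE 0.19, limma, FDR-adjusted P-value 0.29) in the selected line. In the selected line it was 0.49 without StHi replicate 0, where it passed (limma, FDR-adjusted P-value 0.012), and -0.06 without StHi replicate 1 (0.73). The difference in the control line also passed with StHi replicate 1 left out of the fit (limma, FDR-adjusted P-value 0.043) and with only the groups compared (0.039). In the control line, the fit with the replicate number as a block gave -0.26 (SE 0.067) and passed (limma, FDR-adjusted P-value 0.0047). This fit assumes that same-numbered Ce and St samples pair.

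Slc17a6 (chromosome 7, 51622006 to 51671119), the vesicular glutamate transporter VGLUT2, had normalized counts of 851, 654, 1190.3 and 678 in CeCo and of 981, 948, 717 and 2267 in CeHi. CeHi replicate 3 stood far above the other Ce samples. The StCo samples had 1202, 1102, 1015 and 551, and the StHi samples had 2284, 1796 and 1794. The StHi samples were all above the StCo samples, with no overlap. The means were 843 ± 247 (SD, n = 4) in CeCo, 1228 ± 702 (SD, n = 4) in CeHi, 968 ± 288 (SD, n = 4) in StCo and 1958 ± 283 (SD, n = 3) in StHi. The log2 line difference in the St was -1.06 (SE 0.38), which did not pass over all genes (limma, FDR-adjusted P-value 0.20), and it had an FDR-adjusted P-value of 0.057 by limma when CeHi replicate 3 was left out of the fit. In the Ce it was -0.43 (SE 0.35, limma, FDR-adjusted P-value 0.55) with all samples and -0.09 without CeHi replicate 3. Regions did not differ past the threshold in either line (log2 -0.19 and -0.81, limma, FDR-adjusted P-values 0.64 and 0.070). Without CeHi replicate 3 the difference in the selected line was -1.16 and passed (limma, FDR-adjusted P-value 0.0032). It also passed with StCo replicate 3 left out of the fit (-0.82, limma, FDR-adjusted P-value 0.048) and with sample quality weights (-0.96, 0.015).

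Slc17a6 is a transcript of thalamic neurons, and Tcf7l2, a transcription factor that marks the thalamus, is given here after its values were seen. CeHi replicate 3 had 1183 normalized counts of Tcf7l2, and the other 7 Ce samples had 176 to 237. Of the other 6 thalamus markers, 5 lay within or below the range of the other Ce samples there, among them Prkcd at 2930 (3380 to 4765 in the others), Lef1 at 101.5 (88.5 to 108.7) and Gbx2 at 5.28 (1.78 to 9.25), and Rgs16 lay above it at 1115 (847 to 1073). In the St, Tcf7l2 was 541 to 724 in StHi and 198 to 379 in StCo, without overlap (log2 -1.03, SE 0.52, limma, FDR-adjusted P-value 0.41). Over the whole list of 7 thalamus markers the sums were 2686 to 4144 in StCo and 3984 to 4239 in StHi, none was at the floor, and 1 of 7 passed in the StCo-StHi contrast (Plekhg1, log2 -0.47, SE 0.086, limma, FDR-adjusted P-value 0.0046). In the Ce the sums were 6705 to 7543 in CeCo and 5967 to 6735 in CeHi, and most of it was Prkcd and Rgs16, which the Ce also expresses. Pearson's r between Slc17a6 and the list over the 7 St samples was 0.604 (exact permutation P-value 0.15, adjusted 0.28), with Spearman's rho of 0.607 (exact permutation P-value 0.17, adjusted 0.25). Pearson's r was 0.539 without the 2 samples farthest from the median and -0.04 after the mean of each line was removed. With the mean of the log2 marker values in place of their sum, r was 0.81 (exact permutation P-value 0.033, adjusted 0.066). Spearman's rho was then 0.75 (exact permutation P-value 0.066, adjusted 0.099). With the 9 hindbrain markers in the 8 Ce samples, r of Slc17a6 was 0.576 (exact permutation P-value 0.19, adjusted 0.28) and rho was 0.810 (exact permutation P-value 0.022, adjusted 0.044). This rho was 0.738 (exact permutation P-value 0.046, adjusted 0.092) with the mean of the log2 marker values in place of their sum, and 0.667 (exact permutation P-value 0.083, adjusted 0.17) after the mean of each line was removed. Pearson's r with the hindbrain markers was 0.684 without the 2 samples farthest from the median. These markers were low, with sums of 26.9 to 77.6 in the Ce. In the St 8 of the 9 were at the floor in both lines, but Tph2 had 15.5 to 35.7 there and 6.48 to 28.5 in the Ce. The part of neighbouring tissue in the Slc17a6 values was not tested.

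**Figure D2:**
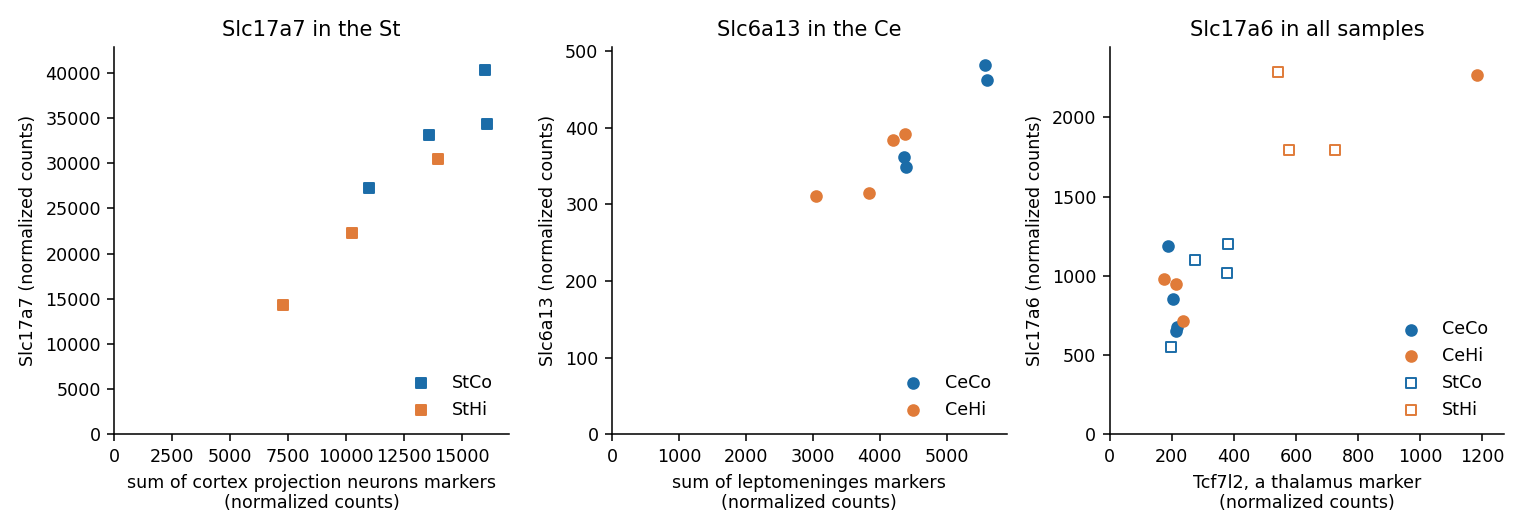
Normalized counts of a transporter (vertical axes) against markers of other tissue (horizontal axes), each point 1 sample. Slc17a7 in the St is plotted against 7 cortex markers, Slc6a13 in the Ce against 8 leptomeninges markers, and Slc17a6 in all 15 samples against Tcf7l2, where CeHi replicate 3 lies at 1183 and the other Ce samples between 176 and 237. Tcf7l2 was chosen from the thalamus list after its values were seen, and most other markers of that list were not raised in CeHi replicate 3.

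Slc17a8 (chromosome 10, 89574020 to 89621253, minus strand), the vesicular glutamate transporter VGLUT3, was the 1 gene of the 9 that differed between lines in the Ce and the 1 gene whose line difference depended on the region. It passed the filter only through the St. In the Ce it had 13.1, 16.9, 12.8 and 9.80 normalized counts in CeCo, from 14, 19, 15 and 11 fragments, and 9.25, 4.22, 4.63 and 4.23 in CeHi, from 11, 4, 5 and 4 fragments. The groups did not overlap, but CeHi replicate 0 was close to the lowest CeCo sample. Summed over the samples, 59 fragments in CeCo (95% exact Poisson interval 44.9 to 76.1) stood against 24 in CeHi (15.4 to 35.7), of 176808935 and 164416917 fragments in all, where the interval covers counting error only. The means were 13.1 ± 2.93 (SD, n = 4) and 5.58 ± 2.45 (SD, n = 4), and the log2 difference was 1.15 (SE 0.22, limma, FDR-adjusted P-value 0.0042). It also passed by edgeR (1.18, FDR-adjusted P-value 0.041) and by DESeq2 (1.20, FDR-adjusted P-value 0.023). In a fit of the Ce samples alone it did not (1.15, limma, FDR-adjusted P-value 0.061). The SE by limma with all samples comes from 1 spread per gene shared by the 4 groups. It can therefore understate the counting error of the low Ce counts, and its P-value can be too small. The same limit holds for the interaction of this gene.

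In the St the direction was the opposite. Slc17a8 had 474, 415, 449 and 495 normalized counts in StCo and 558, 895 and 791 in StHi, without overlap. The means were 458 ± 34.0 (SD, n = 4) and 748 ± 173 (SD, n = 3), and the log2 difference was -0.67 (SE 0.24). This did not pass by limma (FDR-adjusted P-value 0.18), while it passed by edgeR (-0.70, FDR-adjusted P-value 0.013) and by DESeq2 (-0.70, FDR-adjusted P-value 0.0011). The interaction was 1.82 (SE 0.33, limma, FDR-adjusted P-value 0.017). It missed the threshold without StHi replicate 1 (1.68, limma, FDR-adjusted P-value 0.064) and without StHi replicate 2 (1.77, limma, FDR-adjusted P-value 0.059), the 2 StHi samples with the highest values. Between regions the gene was higher in the St in both lines, with log2 differences of -5.05 (SE 0.22) in Co and -6.87 (SE 0.24) in Hi, given as a description. The CeCo mean was 2.87% of the StCo mean and the CeHi mean 0.746% of the StHi mean. The order of the groups, StHi, StCo, CeCo and CeHi, had no overlap between neighbours.

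**Figure D3:**
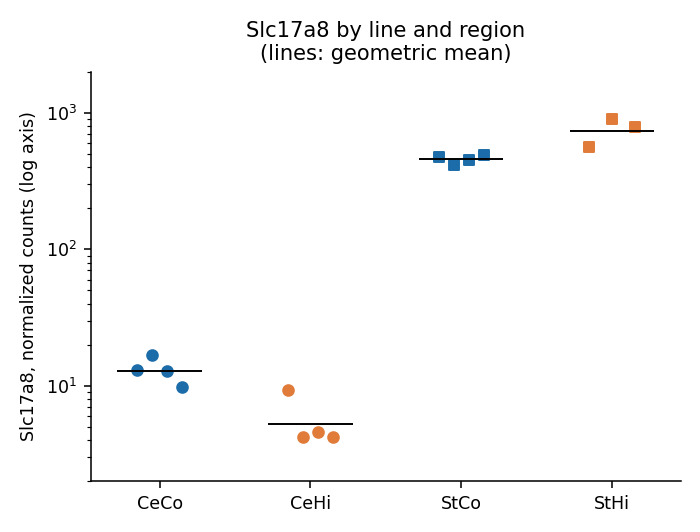
Normalized counts of Slc17a8 (vertical axis, logarithmic) in each sample of the 4 groups, with the geometric mean as a line. The 4 CeCo samples lie at 9.80 to 16.9 and the CeHi samples at 4.22 to 9.25, whereas in the St the StHi samples, at 558 to 895, lie above the StCo samples, at 415 to 495.

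Marker genes of other cells are given beside Slc17a8, and their part in its values was not tested. The 9 hindbrain markers, which include the raphe gene Tph2, summed to 30.3 to 77.6 in CeCo and 26.9 to 60.2 in CeHi, with Hoxa3 at the floor in CeCo, and 0 of 9 were high enough to be tested. The sum of the 8 medium spiny neuron markers was lower in CeCo (8319 to 9782) than in CeHi (10541 to 11668). Most of it was Ppp1r1b, at 4872 to 5458 in CeCo and 5424 to 6402 in CeHi, whereas Drd1a had 16.2 to 34.9 in the Ce. The sum is thus no measure of medium spiny neurons in the Ce. Of the list, 0 of 8 passed in the CeCo-CeHi contrast by limma (3 at an unadjusted P-value under 0.05) or edgeR and 1 by DESeq2. The 7 striatal interneuron markers summed to 15524 to 17921 in StCo and 15461 to 17218 in StHi, none was at the floor, and 0 of 7 passed in the StCo-StHi contrast by limma (1 at an unadjusted P-value under 0.05), edgeR or DESeq2. The sum of the 2 markers of unipolar brush cells was lower in CeCo (1596 to 2119) than in CeHi (2724 to 2942). The 2 genes went opposite ways, with log2 differences of CeCo-CeHi of -0.65 for Eomes and 0.57 for Lmx1a. Of these, 0 of 2 passed by limma (0 at an unadjusted P-value under 0.05), edgeR or DESeq2. The sum of the 4 oligodendrocyte markers was lower in StCo (179111 to 262550) than in StHi (274138 to 313024). Mog went the other way, with a log2 difference of StCo-StHi of 0.18. Of the list, 0 of 4 passed by limma (3 at an unadjusted P-value under 0.05) or edgeR and 1 by DESeq2. The 6 choroid plexus markers summed to 1288 to 1834 in StCo and to 1790, 3449 and 18066 in StHi, and 0 of 6 passed by limma (0 at an unadjusted P-value under 0.05) or edgeR and 1 by DESeq2. Among the interneuron markers Chat, the acetylcholine-synthesizing enzyme of cholinergic interneurons, had a log2 difference of -0.17 (SE 0.41, limma, FDR-adjusted P-value 0.93). The nearest tested genes on either side of Slc17a8, Gas2l3 (chromosome 10, 89408823 to 89443967) and Scyl2 (89638721 to 89686285), had log2 line differences of -0.10 and 0.10 for CeCo-CeHi (limma, FDR-adjusted P-values 0.72 and 0.45) and of 0.02 and 0.19 for StCo-StHi (0.98 and 0.22).

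Per kilobase of exon, Slc17a7 made up 96.98% ± 1.08 (SD, n = 4) of the 3 vesicular glutamate transporters in CeCo, 95.5% ± 2.08 (SD, n = 4) in CeHi, 95.7% ± 0.943 (SD, n = 4) in StCo and 88.0% ± 3.96 (SD, n = 3) in StHi. The share of Slc17a6 was 2.18% to 4.50% in CeCo, 2.89% to 7.56% in CeHi, 1.61% to 3.52% in StCo and 6.85% to 10.4% in StHi, and that of Slc17a8 was 0.0661% or less in the Ce, 1.13% to 1.78% in StCo and 1.91% to 5.96% in StHi. StHi samples thus had the lowest share of Slc17a7 and the highest shares of Slc17a6 in the St, without overlap with StCo. The ratio of Slc17a7 to Slc17a6 within a sample, which does not depend on scaling between samples, had geometric means of 36.0 in StCo and 10.97 in StHi (ranges of 26.8 to 60.1 and of 7.996 to 13.3). The exact permutation P-value of this line difference was 0.057, the smallest that 4 against 3 samples allow, and 0.15 adjusted over 8 ratio tests. In the Ce the geometric means were 34.2 in CeCo and 22.7 in CeHi (exact permutation P-value 0.20, adjusted 0.32).

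**Figure D4:**
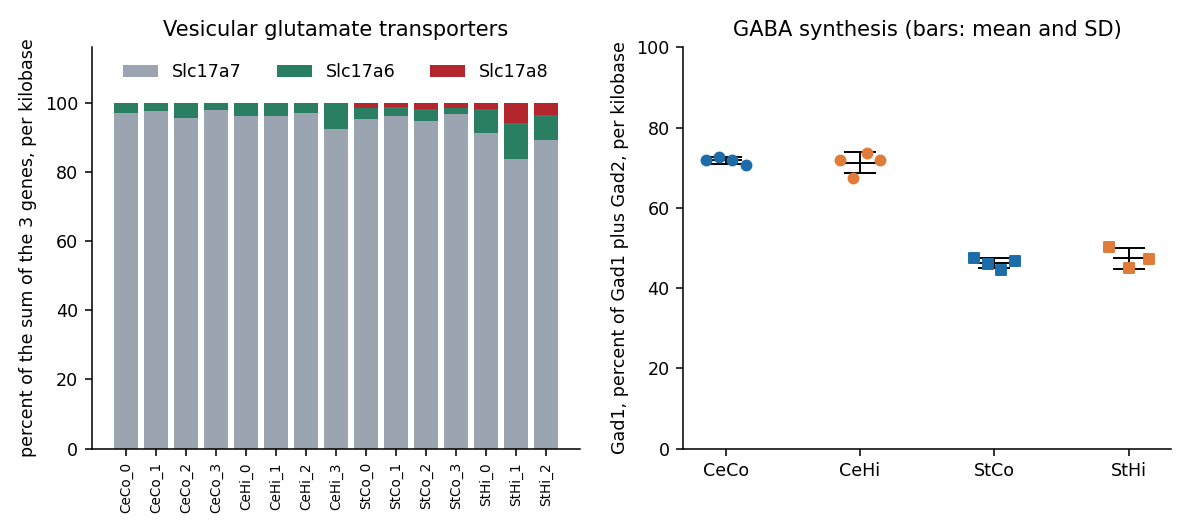
Shares per kilobase in each sample. On the left, bars of Slc17a7, Slc17a6 and Slc17a8 add to 100% in each of the 15 samples, and the 3 StHi samples have the smallest part of Slc17a7 (83.6% to 91.2%). On the right, the percent of Gad1 in Gad1 plus Gad2 (points, with mean and SD) lies at 67.5% to 73.6% in the Ce and at 44.6% to 50.3% in the St.

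Slc32a1 (chromosome 2, 158610767 to 158615748), the vesicular transporter of GABA and glycine, was higher in the St in both lines. Its normalized counts were 5091, 5253, 5162 and 5181 in CeCo and 5164, 5546, 6201 and 5842 in CeHi. The StCo samples had 9345, 9694, 12126 and 9482, and the StHi samples had 11352, 12392 and 12712. StCo replicate 2 stood above the other StCo samples and within the range of StHi. The log2 difference between regions was -0.97 (SE 0.076, limma, FDR-adjusted P-value 3.5e-09) in the control line and -1.10 (SE 0.082, limma, FDR-adjusted P-value 2.4e-09) in the selected line. The line difference was -0.13 (SE 0.076, limma, FDR-adjusted P-value 0.38) in the Ce and -0.26 (SE 0.082, limma, FDR-adjusted P-value 0.12) in the St. Without StCo replicate 2 the latter was -0.35 and passed (limma, FDR-adjusted P-value 0.0064). The antisense transcript Gm14205 shares 23.65% of the 50-base windows of Slc32a1, and whether the counting used strand was not given in the sources used here, so reads of the pair cannot be told apart.

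Gad1 (chromosome 2, 70553072 to 70602014) and Gad2 (chromosome 2, 22622205 to 22693874) encode the GAD67 and GAD65 forms of glutamate decarboxylase, the first spread through the cell and the second concentrated at terminals. Gad1 had 24439, 27117, 22788 and 22609 normalized counts in CeCo, 22657, 21519, 23937 and 22529 in CeHi, 28179, 26019, 29983 and 26822 in StCo, and 28225, 29317 and 29931 in StHi. The regions lay close together, with the highest CeCo sample above 2 StCo samples. Gad2 had 7328, 7848, 6863 and 7173 in CeCo, 6843, 7955, 6597 and 6733 in CeHi, 24037, 23386, 28635.5 and 23436 in StCo, and 21483, 27514 and 25815 in StHi. Every St sample of Gad2 was above every Ce sample by a wide margin.

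On the log2 scale, Gad2 was 1.77 lower in the Ce than in the St in the control line (difference -1.77, SE 0.083, limma, FDR-adjusted P-value 4.1e-12) and Gad1 only slightly lower (-0.20, SE 0.061, limma, FDR-adjusted P-value 0.0069). In the selected line the differences were -1.83 (SE 0.090, limma, FDR-adjusted P-value 1.1e-11) and -0.37 (SE 0.066, limma, FDR-adjusted P-value 9.6e-05). That of Gad1 in the control line did not pass under quantile scaling (-0.08, limma, FDR-adjusted P-value 0.28). Gad1 was 71.8% ± 0.768 (SD, n = 4) of the pair per kilobase in CeCo and 71.2% ± 2.60 (SD, n = 4) in CeHi, and 46.2% ± 1.21 (SD, n = 4) in StCo and 47.5% ± 2.63 (SD, n = 3) in StHi. The ratio of Gad1 to Gad2, in normalized counts, had geometric means of 3.31 in CeCo and 1.12 in StCo (exact permutation P-value 0.029, the smallest that 4 against 4 samples allow) and of 3.23 in CeHi and 1.18 in StHi (exact permutation P-value 0.057), both 0.15 after adjustment over 8 ratio tests. Neither gene differed between lines past the threshold: the log2 differences of CeCo-CeHi and StCo-StHi were 0.10 and -0.07 for Gad1, and 0.06 and 0.0046 for Gad2 (limma, FDR-adjusted P-values 0.40, 0.75, 0.74 and 0.99). The antisense gene Gad1os overlaps Gad1, with the same limit on strand.

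**Figure D5:**
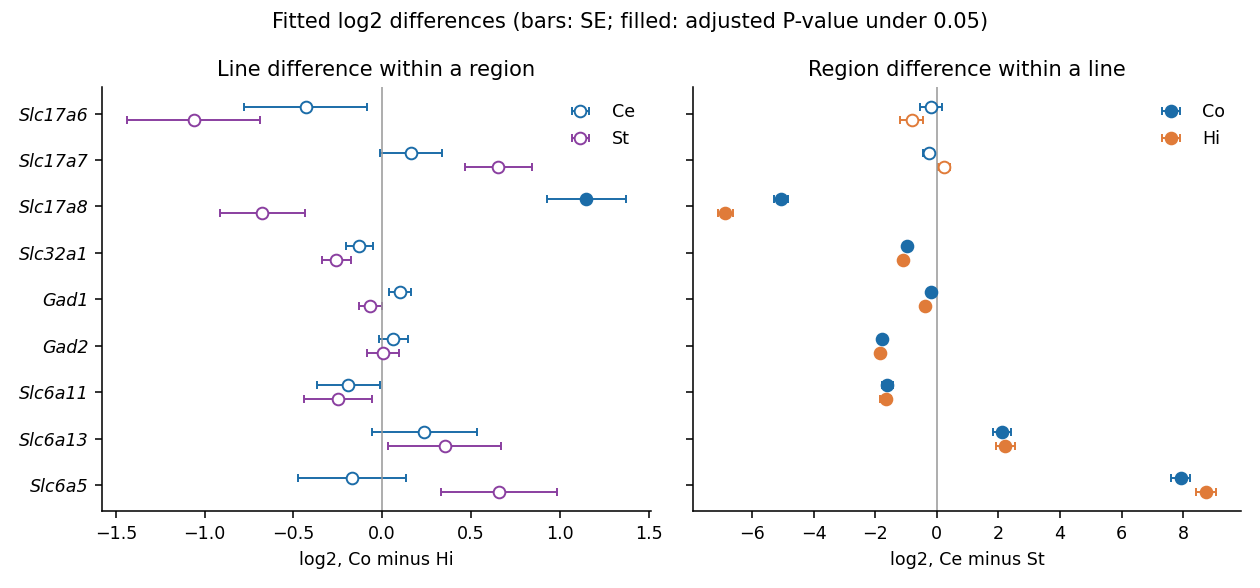
Fitted log2 differences of the 9 genes, on the left between lines (Co minus Hi) in the Ce and the St and on the right between regions (Ce minus St) in Co and Hi, with the SE as bars and filled points for an FDR-adjusted P-value under 0.05. Slc17a8 in the Ce is the only filled point between lines, and 7 genes are filled between regions in each line, of which Slc17a8 and Slc6a5 passed the filter through 1 region alone. The fitted points of Slc6a5 rest on a group at the floor and are no measure of the size of its difference.

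Slc6a11 (chromosome 6, 114131241 to 114249952), the GABA transporter GAT3 of astrocytes, had 2489, 2378, 3012 and 2297 normalized counts in CeCo, 2846, 2364, 2455 and 4273 in CeHi, 7749, 8356, 9333 and 5754 in StCo, and 9429, 9537 and 8539 in StHi. CeHi replicate 3, the sample high in Slc17a6 and Tcf7l2, was also the highest Ce sample of this gene, yet it was below every St sample. The log2 difference between regions was -1.61 (SE 0.18, limma, FDR-adjusted P-value 1.4e-06) in the control line and -1.66 (SE 0.19, limma, FDR-adjusted P-value 2.6e-06) in the selected line. The 5 astrocyte markers went the other way, with sums of 53266 to 60825 in the Ce and 26459 to 32382 in the St, and 3 of 5 were higher in the Ce past the threshold in each line, beside 37.8% of all genes in the control line and 35.4% in the selected line. The line difference was -0.19 in the Ce (SE 0.18, limma, FDR-adjusted P-value 0.61), where it was -0.0062 without CeHi replicate 3, and -0.25 in the St (SE 0.19, limma, FDR-adjusted P-value 0.65). After the mean of each region was removed, Slc6a11 and Slc17a6 had a Pearson's r of 0.88 over the 15 samples, on log2 values, the highest of the 36 pairs among the 9 genes.

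Slc6a13 (chromosome 6, 121300227 to 121337733), the GABA transporter GAT2, is known from the leptomeninges. It had 362, 349, 462 and 482 normalized counts in CeCo, 315, 311, 392 and 385 in CeHi, 97.5, 109.8, 105 and 68.6 in StCo, and 150.5, 67.0 and 39.2 in StHi. It was higher in every Ce sample than in any St sample, and the lines overlapped in both regions. The log2 difference between regions was 2.11 (SE 0.30, limma, FDR-adjusted P-value 1.1e-05) in the control line and 2.23 (SE 0.32, limma, FDR-adjusted P-value 1.6e-05) in the selected line. The 8 leptomeninges markers were also higher in the Ce, 8 of 8 past the threshold in each line, beside the same 37.8% and 35.4% of all genes, with sums of 3044 to 5596 in the Ce and 889 to 1484 in the St and none at the floor. Over the 8 Ce samples Slc6a13 and this sum had a Pearson's r of 0.935 (exact permutation P-value 0.0029, adjusted 0.0086) and a Spearman's rho of 0.810 (exact permutation P-value 0.022, adjusted 0.044), and r was 0.936 without the 2 samples farthest from the median and 0.932 after the mean of each line was removed. Over the 7 St samples r was 0.178 (exact permutation P-value 0.67, adjusted 0.73) and rho was 0.071 (exact permutation P-value 0.91, adjusted 0.91), and r was -0.44 without the 2 samples farthest from the median. The line difference of Slc6a13 was 0.24 in the Ce (SE 0.30, limma, FDR-adjusted P-value 0.72), where 1 of 8 leptomeninges markers passed (Col3a1, 0.86, SE 0.16, limma, FDR-adjusted P-value 0.0029), and 0.35 in the St (SE 0.32, limma, FDR-adjusted P-value 0.72). The part of the meninges in the Slc6a13 values was not tested.

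Slc6a5 (chromosome 7, 49910146 to 49963856), the transporter GLYT2 that recovers glycine into glycinergic neurons, was detected above the floor in the Ce groups and not in the St groups. It passed the filter only through the Ce. It had 437, 374, 360.1 and 349 normalized counts in CeCo and 417, 555, 364 and 395 in CeHi, whereas the StCo samples had 0, 1, 2 and 0 fragments and the 3 StHi samples had 0. Both St groups were at the floor, so that the Ce mean was at least 102.6-fold higher in the control line and at least 111.2-fold higher in the selected line, against a floor of 3 fragments in the library where that is worth most. The line difference in the Ce was -0.17 (SE 0.30, limma, FDR-adjusted P-value 0.81), with overlapping samples. CeHi replicate 1 was the highest sample. With the 9 hindbrain markers over the 8 Ce samples r was 0.127 (exact permutation P-value 0.73, adjusted 0.73) and rho was 0.238 (exact permutation P-value 0.58, adjusted 0.70), and r was 0.370 without the 2 samples farthest from the median.

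Per kilobase, the 9 genes spanned most of the range of brain transcripts. In CeCo, Slc17a7 had 5197 normalized counts per kilobase, above 98.5% of the genes tested, followed by Gad1 with 3173, Slc32a1 with 1849, Gad2 with 1243, Slc6a11 with 504, Slc17a6 with 156, Slc6a13 with 142, Slc6a5 with 52.8 and Slc17a8 with 2.79. In StCo the order was Slc17a7 with 6261, Gad2 with 4233, Slc32a1 with 3633.1, Gad1 with 3632.8, Slc6a11 with 1544, Slc17a6 with 179, Slc17a8 with 97.1, Slc6a13 with 32.8 and Slc6a5 at the floor.

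Of 22 other genes that transport or metabolize GABA, glycine and glutamate, 21 were tested. Between lines 1 of 21 passed in the Ce by limma (4 at an unadjusted P-value under 0.05), beside 5.94% of all genes, with 1 by edgeR and 3 by DESeq2. In the St 2 of 21 passed by limma (4 at an unadjusted P-value under 0.05), beside 2.66%, with 2 by edgeR and 2 by DESeq2, whereas 0 of 21 passed for the interaction by limma (2 at an unadjusted P-value under 0.05), edgeR or DESeq2. Slc1a1, a neuronal glutamate transporter, was lower in CeCo (1400.0 to 1573) than in CeHi (1626 to 1781), without overlap (log2 -0.20, SE 0.052, limma, FDR-adjusted P-value 0.033). Slc6a9, the glycine transporter GLYT1 of glia, was lower in StCo (1698 to 2161) than in StHi (2293 to 2581), without overlap (log2 -0.36, SE 0.082, limma, FDR-adjusted P-value 0.025). Slc25a22, a mitochondrial glutamate carrier, was higher in StCo (8314 to 9100) than in StHi (6920 to 7952), without overlap (log2 0.23, SE 0.056, limma, FDR-adjusted P-value 0.035). Between regions 19 of 21 passed in the control line, beside 74.7% of all genes, with 8 higher in the Ce (beside 37.8%) and 11 higher in the St (beside 36.9%). In the selected line 17 of 21 passed, beside 70.5%, with 8 higher in the Ce (beside 35.4%) and 9 higher in the St (beside 35.1%).

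The genes whose pattern over the 15 samples was most like a member, by Pearson's r of log2 values after the mean of each region was removed, are given as a description. They were Neurod2 (0.97), St8sia5 (0.96) and Vsnl1 (0.95) for Slc17a7, Lhx9 (0.92), Slc6a11 (0.88) and Rom1 (0.88) for Slc17a6, and Kank2 (0.90), Phldb1 (0.89) and Upf1 (0.89) for Slc17a8. Slc32a1 was most like Copg2-2 (0.91), Cox6b2 (0.89) and Pygo2 (0.88), Gad1 most like Slc9a5 (0.84), Lrrc16a (0.84) and Sf3b3 (0.83), and Gad2 most like Chn2 (0.91), D930015E06Rik (0.85) and Ehmt1 (0.82). Slc6a11 was most like Tox2 (0.89), Slc17a6 (0.88) and Sncg (0.87), Slc6a13 most like Ethe1 (0.87), Zfp296 (0.86) and Ptgdr (0.86), and Slc6a5 most like Plekha6 (0.84), Plekha7 (0.82) and Tmem52 (0.80). Slc6a5 was at the floor in the St, and its r takes in StCo replicates 1 and 2 with 1 and 2 fragments. On the log2 scale such counts weigh heavily, so the genes listed for Slc6a5 show no likeness in measured levels. Both genes of a pair were measured in the same libraries and dissections, so differences in depth or neighbouring tissue enter both values of a pair.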

How the data were processed

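RNA-seq values of 15 samples in 4 groups were analysed, with groups taken from the labels. The deposited table holds an expression signal per gene and sample. To make it, the authors aligned paired reads to GRCm38 with TopHat2 and scaled the fragments counted in each gene for library size with Cuffnorm 2.2.1. The values are not divided by gene length. Of the low values of each sample, 99.6% to 99.8% were whole multiples of 1 fragment (tolerance 0.1 fragment), and fragments were recovered by that step.

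Of 26628 genes, 15213 reached a CPM of 1 in 3 or more samples and entered the tests. Library scaling used TMM factors (0.933 to 1.055), and values were transformed as log2 of the value plus 1 and fitted as 4 group means with limma 3.58.1 in R 4.3.3 (trended and robust moderation), and P-values were adjusted by the Benjamini-Hochberg method over all 15213 genes. The study names the quasi-likelihood test of edgeR, which was run on the recovered fragments with edgeR 4.0.16 as an alternative, as was DESeq2 1.42.0. Nothing in the labels ties samples beyond their numbers, so P-values measure the spread between these samples. Same-numbered CeCo and StCo samples had residuals correlated at 0.171 to 0.278 in 4 of 4 pairs, each the best match. They were taken to pair in an alternative fit, while CeHi and StHi samples had -0.0751 to 0.0513 and were not. Same-numbered samples of different lines, which are different mice, had -0.221 to 0.183 in the Ce (2 of 4 the best match). In the St they had -0.0432 to 0.196 (1 of 3). Values of this size thus also arose between different mice, and the pairing is an assumption.

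All 9 genes are named whatever their values. Of 22 related genes, those past an adjusted P-value of 0.05 in a line effect or the interaction are named, as are the 3 genes most like each of the 9, and the neighbours of a gene with a line effect. Tcf7l2, Prkcd, Lef1, Gbx2, Rgs16, Plekhg1, Col3a1 and Chat were named after their values were seen. So were Eomes, Lmx1a, Mog, Ppp1r1b, Drd1a and Tph2. The genes and lists were chosen with earlier results of these data known. Positions are from GENCODE M21 on GRCm38, and promoters from RefSeq matched 9 of 9 symbols.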

Additional observations from a re-analysis of the deposited data

Results flagged for a closer look

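In 27 sets of 4 samples (the 9 genes in CeCo, CeHi and StCo), 5 had a highest or lowest sample whose gap to the next as a share of the range of the group exceeded Dixon's 95% critical value, where chance gives about 1 in 20 sets. In all 5 it was the highest. In CeHi, replicate 3 had 2267 normalized counts of Slc17a6 and 27684 of Slc17a7, and replicate 0 had 9.25 of Slc17a8. In StCo, replicate 2 had 12126 of Slc32a1 and 28636 of Gad2.

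The line difference of Slc17a8 differed between regions, with an interaction of 1.82 on the log2 scale by limma, since the gene was higher in CeCo than in CeHi and lower in StCo than in StHi.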

How the results depend on the processing

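Over 14 alternative fits and 15 fits without 1 sample, 1217 of 1260 comparisons of the 9 genes kept their direction and their side of the threshold, 26 turned direction, 13 newly passed and 4 no longer passed. The number of genes of the 9 that passed was 0 in CeCo-CeHi with the Ce samples alone. In StCo-StHi it was 1 by edgeR, 1 by DESeq2 (Slc17a8) and 2 with sample quality weights (Slc17a7 and Slc32a1). Without 1 sample it ranged from 0 to 1 in StCo-StHi and from 0 to 1 for the interaction. Between regions it was 7 in each line, beside 74.7% of all genes in the control line and 70.5% in the selected line. This count holds Slc17a8 and Slc6a5, which passed the filter through 1 region alone, and was 5 of 7 genes without them. With all 9 genes it ranged from 6 (quantile scaling) to 8 in CeCo-StCo and from 7 to 8 in CeHi-StHi. The cause of these changes was not tested.

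None of the comparisons that turned direction had passed. Gad2 in StCo-StHi was -0.0014 with no filter, -0.0017 with a CPM of 5, -0.0012 with no further scaling, -0.032 with quantile scaling, -0.064 with sample quality weights and -0.0015 with the St samples alone, and -0.099 to 0.080 without 1 sample. The interaction of Slc6a13 was 0.068 by edgeR, 0.073 by DESeq2 and -0.63 to 0.33 without 1 sample, and its StCo-StHi difference was -0.095 to 0.86. Without 1 sample the interaction was -0.080 to 0.25 for Slc6a11 and -0.017 to 0.16 for Gad2, and Slc17a7 in CeHi-StHi was -0.056 to 0.49. The log2 ratio differences without 1 sample were -0.048 to 0.093 for Gad1 over Gad2 in CeCo-CeHi, -0.14 to 0.0086 in StCo-StHi, and -0.22 to 0.17 for Slc17a7 over Slc17a6 in CeCo-StCo. The correlation of Slc17a6 with thalamus markers in the St was -0.040 after the line means were removed.

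With the replicate number as a block in all groups, Slc17a8 had a log2 difference of 1.15 in CeCo-CeHi (limma, FDR-adjusted P-value 0.0097) and an interaction of 1.77 (0.046). In the control line alone, an alternative chosen after seeing the data, the block changed the call of Slc17a7 in CeCo-StCo (-0.26, limma, FDR-adjusted P-value 0.0047) and of no other of the 9 genes. Over all genes, calls in CeCo-CeHi were 903 by limma and 1389 by DESeq2. In StCo-StHi they were 405, 709 by DESeq2, 740 with sample quality weights, and 269 without StCo replicate 1 or StHi replicate 2. For the interaction they were 81, 277 by DESeq2, 182 with sample quality weights, and 46 to 53 without CeCo replicate 0, CeHi replicate 2, StCo replicate 1, StHi replicate 1 or StHi replicate 2. Depth limits Slc17a8 in the Ce (4 to 19 fragments per library) and Slc6a5 in the St (0 to 2).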
